A study of Mus musculus with 4 samples.

Results

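The Notch pathway was followed through 10 of its genes in mouse neural stem cells with and without a labelled loss of Olig1, which encodes a basic helix-loop-helix protein that drives oligodendrocyte development. The genes were the receptors Notch1, Notch2 and Notch3, the ligands Dll1, Dll3, Jag1 and Jag2, the receptor-modifying enzyme Mfng and the target genes Hes1 and Hes5. They were chosen by name, as every probe set that the array's annotation gave to 1 of these genes alone. This gave 16 probe sets of 22690 on the array, 1 for each of 4 genes and 2 for each of the other 6.

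Notch receptors are cut when a Delta or Jagged ligand on a neighbouring cell pulls on them, and the freed intracellular part joins the DNA-binding protein RBPJ to switch on Hes and related repressors. Hes proteins keep neural progenitors undifferentiated by repressing proneural genes, while cells with high proneural activity make Delta ligands and so hold their neighbours back. Fringe enzymes such as Mfng add sugars to the receptor and shift its preference between ligand families.

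The cells came from the ganglionic eminences, swellings of the ventral forebrain where interneurons and the earliest oligodendrocyte precursors arise, and the embryos were at day 14.5 of development. Each of 4 Affymetrix arrays measured 1 sample of cells grown without serum and with EGF, on a C57/Bl6 background. The genotype label was wild type for 1 array and Olig1 KO for 3. KO replicates 2 and 3 carry the numbers 37 and 38 in their titles, and replicate 1 carries none. Which part of Olig1 the allele lacks, and whether the arrays came from separate embryos, was not given in the sources used here, so any p-value measures no more than how these samples vary, part of which may be technical. Values are MAS5 signals, the brightness of a probe set on a linear scale. A signal was called above background where it exceeded the brightest of 27 bacterial control probe sets with no target, a limit of 30.5 for the wild type and of 21.3, 39.99 and 87.8 for the KO arrays. KO signals are given throughout in the order of replicates 1, 2 and 3. Levels were not compared between probe sets.

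The arrays stood apart in ways that genotype does not set. The Olig1 probe set itself gave a wild-type signal of 7618 and KO signals of 3840, 4438 and 8548, so the signal of the targeted gene does not check the labels, and each direction below rests on them. Xist was 9480 and 8472 for wild type and KO replicate 1 but 160.9 and 46.5 in KO replicates 2 and 3. Eif2s3y, a gene of the Y chromosome, was 0.608 and 1.53 against 654 and 1160 in the same pairs. By these genes the pairs differ as female and male cells do. For KO replicates 2 and 3, genotype and sex thus cannot be told apart. The 18S ribosomal RNA followed the same pairs, at 4.64 and 7.24 against 946 and 2823. Beta-actin signal at the 3' end over that at the 5' end, which grows as RNA degrades, was 1.11 in wild type. It was 1.251 and 1.30 in KO replicates 1 and 2, and 1.82 in KO replicate 3. The same ratio for Gapdh was 0.76 in wild type and 0.79, 1.03 and 0.84 in KO, so it was highest in KO replicate 2. The part of RNA degradation in the differences between arrays was not tested. Inside an Xist pair, the only comparison of genotypes is that of wild type with KO replicate 1, 1 array each. Of the markers listed for each cell type, 9 of 10 measured for neural stem cells and radial glia, 7 of 9 for the oligodendrocyte lineage, 6 of 7 for astrocytes and 4 of 9 for neurons were above background in all 4 arrays. The counts were 2 of 9 for pericytes and mesenchyme, 2 of 7 for microglia and blood, and 0 of 8 for endothelium, with Tek, Ptprc and Pdgfrb at background in every array. Mog, of the oligodendrocyte lineage list, was at background in every array as well. The 9 markers of neural stem cells and radial glia include Hes1, itself among the Notch genes followed here. In such bulk samples, fewer cells of a type and less RNA per cell cannot be told apart.

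None of the 10 Notch genes was called different between the genotypes, so the values are given array by array. Both Notch1 probe sets were higher in every KO array than with the wild-type label, and Hes1 and Mfng were lower in every one. Hes5 and Dll3 were much lower in KO replicates 1 and 2 and close to, or above, the wild-type signal in KO replicate 3. One Jag2 probe set was at least 2-fold higher in every KO array, while the other was above background only in the wild-type array. Dll1, Notch3 and 1 Jag1 probe set overlapped between the genotypes with small differences.

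**Figure D1:**
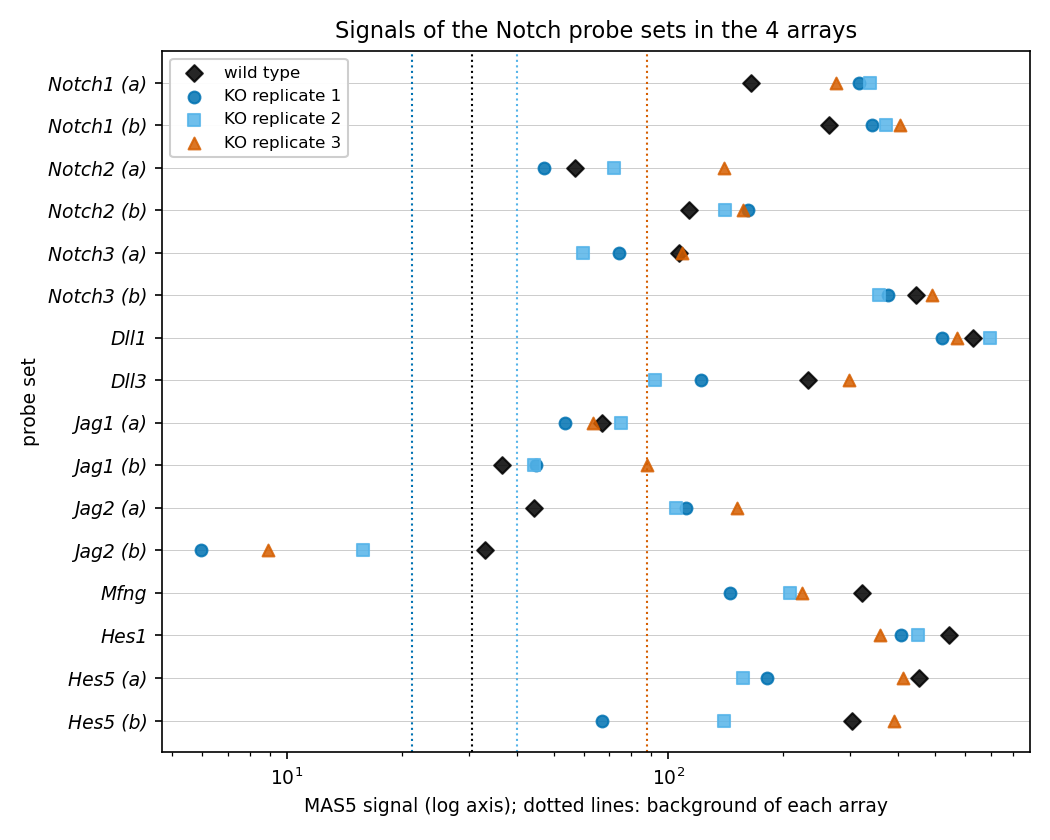
MAS5 signal (log axis) of the 16 Notch probe sets in the wild-type array and the 3 KO arrays. Letters a and b mark the probe sets of 1 gene in the order of their identifiers, and each dotted line is the background of the array of its colour. Of the 16, 13 lay above background in all 4 arrays, and the Hes5 and Dll3 rows show KO replicate 3 beside the wild type and KO replicates 1 and 2 to the left.

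The test was limma on log2(signal + 14.4), a scale that understates the change of dim probe sets. It was fitted across the 12228 probe sets left after the dimmest 40% were removed, with Benjamini-Hochberg adjustment over all of them. None of them was called at an adjusted p under 0.05 (0%), and 307 (2.51%) had an unadjusted p under 0.05. Of the 16 Notch probe sets, 11 passed the filter, and all of these had a limma adjusted p of 0.999. Of these 11, 2 had an unadjusted p under 0.05, 1 of Notch1 and 1 of Jag2. The KO arrays lay all above the wild type for 4 of the 11 and all below it for 3. The shares over all probe sets tested were 22.6% above and 23.6% below. The Jag2 probe set, counted in the 2 and in the 4, passed the filter only through the KO arrays. Counting the 5 left out by the filter as well, 5 of 16 lay above, 4 below and 7 overlapped. The median log2 difference of the 11 was -0.14, against -0.02 for all probe sets tested. With 1 wild-type array, an exact permutation test of a single probe set cannot go below p = 0.25.

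**Figure D2:**
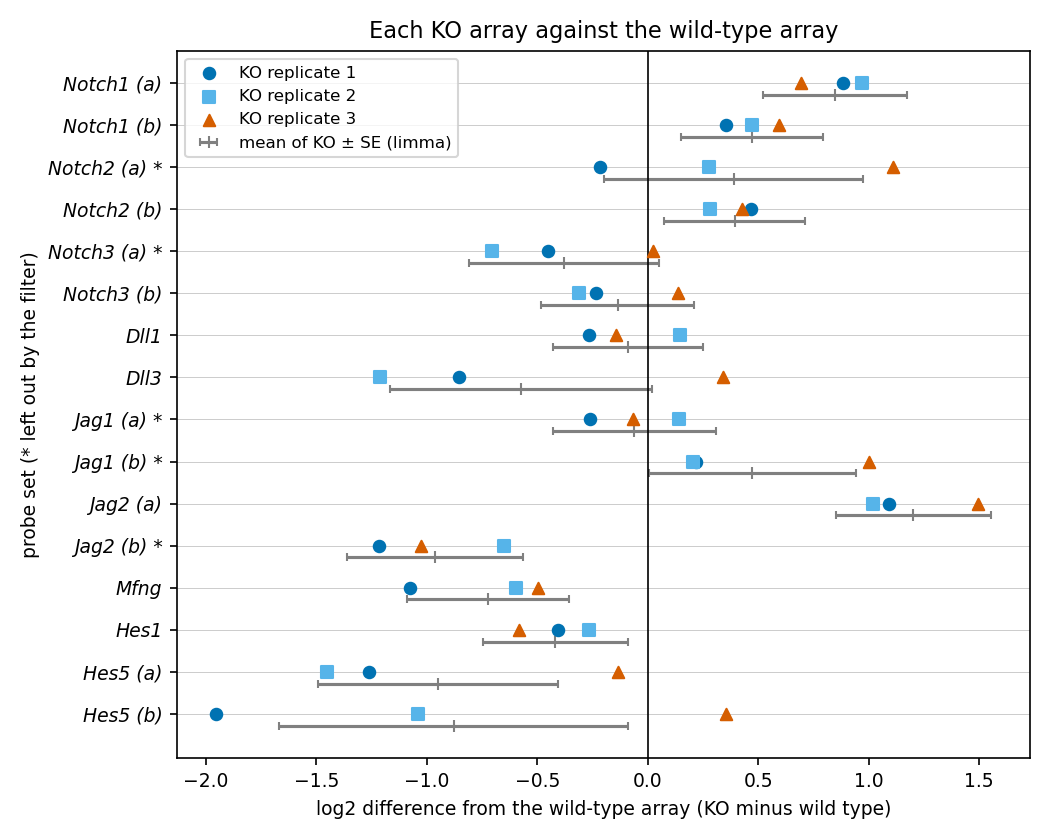
Log2 difference of each KO array from the wild-type array for the 16 Notch probe sets (points), with the mean of the KO arrays and limma's SE (grey bars). An asterisk marks the 5 probe sets left out by the filter, and the range over the 4 arrays runs from 0.40 log2 units for a Jag1 probe set to 2.31 for a Hes5 probe set.

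Notch1, the receptor best known for holding neural progenitors in an undifferentiated state, had its KO signals above the wild-type signal with both probe sets. Its first probe set (1418633_at) gave a wild-type signal of 165 and KO signals of 316, 337 and 275. The second (1418634_at) gave 264 against 341, 371 and 405. The wild-type array was the lowest of the 4 for both, and the genotypes did not overlap. The KO means were 309 ± 31.4 and 372 ± 32.2 (SD, n = 3), and the log2 differences of KO from wild type were 0.85 (SE 0.33) and 0.47 (SE 0.32), both with a limma adjusted p of 0.999. Between the 2 arrays of the same pair, wild type and KO replicate 1, they were 0.88 and 0.35.

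Notch2, a receptor shared by progenitors and glia, was measured by a pair of probe sets that differed in KO replicate 1. The brighter (1455556_at) gave a wild-type signal of 113 and KO signals of 162, 140.5 and 157, with no overlap and a log2 difference of 0.39 (SE 0.32). The dimmer (1451889_at), left out by the filter, gave 56.9 against 47.1, 71.9 and 139.5, so KO replicate 1 lay below the wild type and KO replicate 3 well above it.

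Notch3, a receptor of vascular mural cells that neural progenitors also make, overlapped between the genotypes with both probe sets. The brighter one (1421965_s_at) gave a wild-type signal of 445 and KO signals of 376, 356 and 492. The dimmer one (1421964_at) gave 106.6 against 74.1, 59.9 and 108.5. In both, KO replicates 1 and 2 were below the wild type and KO replicate 3 was slightly above it, with log2 differences of -0.14 (SE 0.35) and -0.38 (SE 0.43, from the fit without a filter). Pdgfrb, a defining gene of mural cells, was at background in all 4 arrays. Acta2 and Col1a2, of the same marker list, were above background in all 4. The 9 pericyte and mesenchyme markers summed to 833 in the wild-type array and to 517, 889 and 862 in KO replicates 1, 2 and 3, and their part in the Notch3 signal was not tested.

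Among the ligands, Dll1, the Delta ligand that progenitors and newborn neurons present to their neighbours, was nearly level. It gave a wild-type signal of 629 and KO signals of 521, 698 and 569. The wild-type signal lay inside the KO range, and the log2 difference was -0.09 (SE 0.34, limma adjusted p = 0.999).

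Dll3, a divergent Delta ligand that acts inside its own cell to dampen Notch rather than to activate a neighbour, varied far more. It gave a wild-type signal of 232 and KO signals of 122, 92.1 and 297. KO replicates 1 and 2 were thus at about the same low level, while KO replicate 3 was the highest of all. The KO mean was 170.5 ± 110.9 (SD, n = 3), and the log2 difference of -0.57 had an SE of 0.59. Without KO replicate 3 it was -1.03 (SE 0.34, limma adjusted p = 0.9997), without KO replicate 2 it was -0.26 (SE 0.59) and without KO replicate 1 it was -0.43 (SE 0.63).

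Jag1, a Jagged ligand of the developing ventricular zone and of vessels, was dim. Its probe sets gave wild-type signals of 66.9 and 36.6. The first of these (1421105_at) gave 53.5, 75.3 and 63.2 in the KO arrays, around the wild-type value. The second (1421106_at) gave 44.9, 44.3 and 87.6, all above it. Neither exceeded background in KO replicate 3, where background is highest, and both were left out by the filter.

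Jag2, the other Jagged ligand, had the largest difference of any Notch probe set that passed the filter, but its probe sets pointed in opposite directions. Probe set 1426430_at gave a wild-type signal of 44.3 and KO signals of 111, 104.7 and 151. Every KO array was at least 1 log2 unit above the wild type, which held for 20 of the 12228 probe sets (0.164%). The log2 difference was 1.20 (SE 0.35, limma adjusted p = 0.999), and 1.09 between wild type and KO replicate 1. It passed the filter only through the KO arrays, since its wild-type signal lay under the limit, a signal of 86.9. Probe set 1426431_at gave 33.0 in wild type, just above background, and 5.97, 15.9 and 8.91 in the KO arrays, all at background, so that difference has no exact size. The endothelial markers, of a cell type that also makes Jagged ligands, summed to 358 in the wild-type array and to 374, 370.3 and 284 in the KO arrays, with 0 of the 8 above background throughout, and their part was not tested.

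Mfng, the fringe enzyme that adds N-acetylglucosamine to fucose on the receptor, was lower in every KO array. It gave a wild-type signal of 322 and KO signals of 145, 208 and 224. The genotypes did not overlap, and KO replicate 1, the array of the same pair as the wild type, was the lowest. The log2 difference was -0.72 (SE 0.37, limma adjusted p = 0.999), and it was -1.08 between wild type and KO replicate 1.

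Hes1, the Notch target that oscillates in progenitors and represses proneural genes, was also lower in every KO array, by a small step. It gave a wild-type signal of 543 and KO signals of 406, 450.2 and 358, or 405 ± 46.3 (SD, n = 3). The log2 difference was -0.42 (SE 0.33, limma adjusted p = 0.999), and -0.41 between wild type and KO replicate 1.

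Hes5, a direct target often read as a measure of Notch activity in neural progenitors, had the widest differences among the arrays. Probe set 1423146_at gave a wild-type signal of 454 and KO signals of 181, 157 and 412. Probe set 1456010_x_at, whose suffix marks possible cross-hybridization, gave 302 against 67.2, 139.6 and 391. Both probe sets put KO replicates 1 and 2 well below the wild type and KO replicate 3 within 0.36 log2 units of it. In KO replicate 1 the log2 differences from the wild type were -1.26 and -1.96, in KO replicate 2 they were -1.45 and -1.04, and in KO replicate 3 they were -0.14 and 0.36. The mean differences were -0.95 (SE 0.54) and -0.88 (SE 0.79), both with a limma adjusted p of 0.999. Without KO replicate 3 they were -1.36 (SE 0.33) and -1.50 (SE 0.44), with a limma adjusted p of 0.9997 for each. Without KO replicate 1 they were -0.79 and -0.34, and without KO replicate 2 they were -0.70 and -0.80. KO replicate 3 is the array that stood apart for Hes5 and Dll3, so leaving it out enlarges their differences by construction. In the counts below, Hes5 has 2 probe sets, and 1426430_at of Jag2 passed the filter only through the KO arrays. Of the 11 probe sets that passed the filter, 5 had an unadjusted p under 0.05 when KO replicate 3 was left out, those of Hes5, Dll3, 1 of Notch1 and 1 of Jag2, where 3.70% of all probe sets tested had one. Leaving out KO replicate 1 or 2 left 1, of Jag2, where the shares over all probe sets were 8.31% and 0.842%.

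The promoter sequence of Hes5 is shown because RBPJ, the DNA-binding partner of Notch, acts there. Promoters from RefSeq (GRCm38.p6) were at hand for 8 of the 10 genes, and the 250 bases before the listed start were searched on both strands for the RBPJ core TGGGAA. Of these 8 genes, only Hes5 held it, at 2 places, and 21.6% of 32851 promoters held at least 1. Hes1, the other Hes target among the members, and Mfng had no promoter at hand and were not searched. The capitals mark the core, read as its reverse complement in the upstream stretch, which lies at chr4:154960685-154960714, and forward in the downstream stretch, at chr4:154960829-154960858, both on the plus strand.
Hes5 upstream: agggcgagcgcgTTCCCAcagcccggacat
Hes5 downstream: ggccgccgagtgTGGGAAcggccgcggcgc
The cores begin 226 and 82 bases before the listed start, and an earlier start of the gene in RefSeq lies upstream of both. The letters CAGCTG, an E box that proneural factors can bind, occurred in the same window of Dll3, Dll1 and Jag1, and in 13.0% of all promoters. The Dll3 match lies against the start, in the stretch at chr7:28301786-28301815 on the minus strand, with the match in capitals.
Dll3: aaatataagactccggcatccagCAGCTGc
CACNAG, the N box that Hes repressors can bind, occurred in Notch1, Notch2 and Notch3, and in 36.7% of all promoters. These matches describe the letters of the windows and show no binding.

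Nrarp and Hes6, of the pathway lists, were set beside Hes5 and Dll3 after their values were seen. Nrarp, a direct Notch target that feeds back on the receptor, gave a wild-type signal of 961 and KO signals of 535, 605 and 1063 with 1 probe set (1417985_at). Its other probe set (1417986_at) gave 584 against 287, 223 and 286, so KO replicate 3 was near the wild type with the one and low with the other. Hes6, a Hes relative that opposes Hes1 in cells entering neurogenesis, gave 896 against 524, 499.9 and 807 with 1452021_a_at, and 1437 against 999, 865 and 957 with 1436050_x_at. For Hes5, Dll3 and 1 probe set each of Nrarp and Hes6, the signals of the wild-type array and KO replicate 3 were thus above those of KO replicates 1 and 2, an order that crosses both genotype and the Xist pairs. The share of all probe sets tested with this order was not counted. Both Notch3 probe sets and the probe sets of Mfng and Olig1 had that order as well. So had probe sets of other pathway genes, among them Rfng, Tle3, Mib2 and Dtx2. The Olig2 probe set did not, with 4278 for wild type and 4939, 3411 and 2694 for KO. The summed oligodendrocyte lineage markers, which include Olig1, were 14688 in wild type and 11230.3, 10559 and 15315 in KO. Without Olig1 the order was not there, at 7070.0 in wild type and 7391, 6121 and 6767 in KO. The summed astrocyte markers had the order, at 8325 against 6902, 5441 and 7323, and the summed neuronal markers were 2606 against 2166, 1444 and 1561. The summed markers of neural stem cells and radial glia did not have it, at 41177 against 38342, 53790.5 and 57681. The part of these cell types in the signals was not tested.

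**Figure D3:**
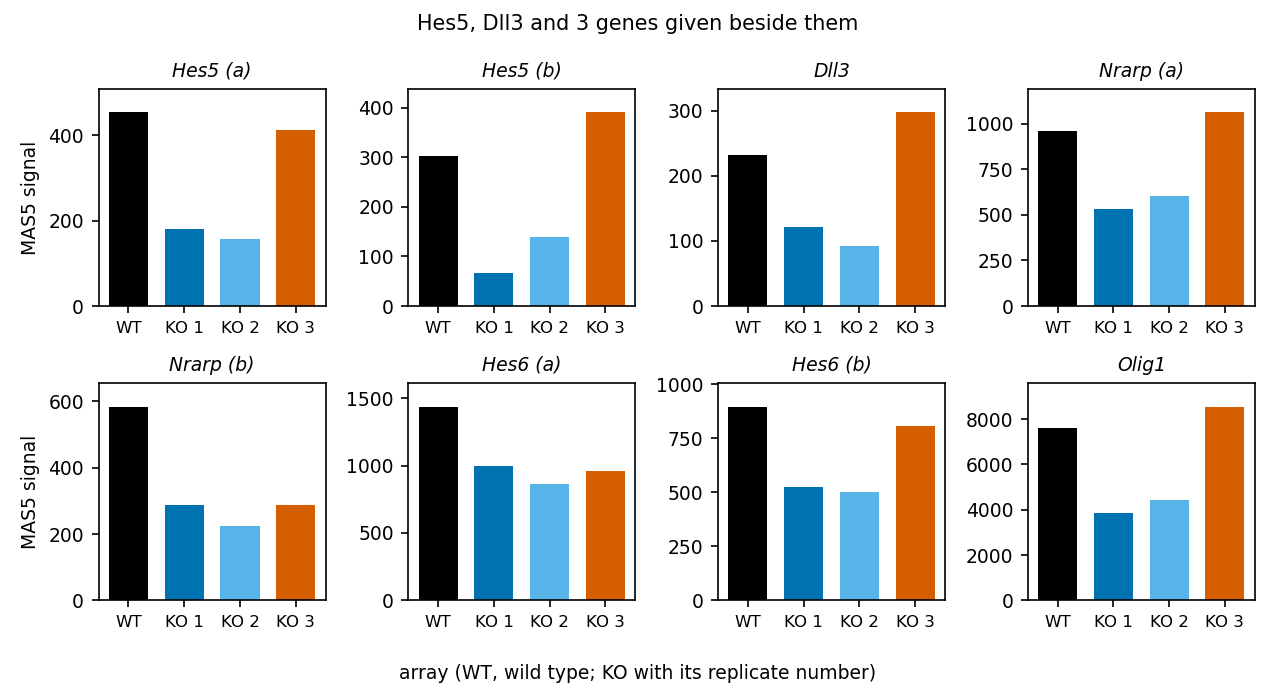
MAS5 signal of Hes5, Dll3, Nrarp, Hes6 and Olig1 in the wild-type array (WT) and KO replicates 1 to 3, each bar 1 array and each panel 1 probe set on its own axis from 0. Hes5 (a) stands at 454 and 412 in the wild type and KO replicate 3 but at 181 and 157 in KO replicates 1 and 2, while Nrarp (b) and Hes6 (a) are low in all 3 KO arrays.

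The rest of the pathway was taken from 6 lists of 86 genes, of which 74 were measured by 136 probe sets. The filter kept 91 probe sets, and of these 0 were called higher and 0 lower in KO, with 6 at an unadjusted p under 0.05, where 2.51% of all probe sets tested had one. The KO arrays lay all above the wild type for 23 (25.3%) and all below it for 22 (24.2%), near the 22.6% and 23.6% of all probe sets tested, which are the shares against which each list below is to be read. The median log2 difference was -0.03. The proneural genes that Hes proteins repress, among them Neurog1, Neurog2, Neurod1 and Neurod4, had 11 probe sets for 8 genes, all left out as dim.

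The fringe and glycosyltransferase list had the lowest median, -0.55 over 6 kept probe sets, of which 4 lay below the wild type in all 3 KO arrays and 1 above, against 23.6% and 22.6% of all probe sets tested. Lfng, the fringe enzyme of cycling progenitors, gave a wild-type signal of 2201 and KO signals of 2009, 972 and 495 with 1420643_at. Its other probe set, 1449943_at, gave 555 against 269, 147.6 and 68.4, the last of these at background, so that its difference has no exact size. The low signals were in the pair of arrays with high 18S signal, and between wild type and KO replicate 1 the differences were -0.13 and -1.004. Rfng, the third fringe enzyme, gave 229 against 154.8, 118.9 and 86.5 with 1421160_a_at, at background in KO replicate 3, and differed by -0.15 with 1460704_at. Mfng thus had its lowest signal in KO replicate 1, and Lfng in KO replicate 3.

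In the list of further receptors, ligands and ligand-like genes, 2 of 6 kept probe sets lay below the wild type in all 3 KO arrays and 0 above. Both were of Dner, a neuronal ligand-like membrane protein, which gave a wild-type signal of 772 and KO signals of 614, 283 and 249 with 1423671_at, and 491 against 485, 113 and 269 with 1456379_x_at. KO replicate 1 was close to the wild type and the other 2 arrays were low. Egfl7 and Cntn1, the other genes that the rule named here, overlapped between the genotypes. Egfl7 gave 138 against 73.3, 144.2 and 55.9 with 1451428_x_at, at background in KO replicate 3, and Cntn1 differed by 0.32 with 1452981_at.

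For processing and traffic, 36 probe sets of 20 genes were kept, 6 of them (16.7%) above and 11 (30.6%) below the wild type in all 3 KO arrays, against 22.6% and 23.6% of all probe sets tested (median -0.11). Dnm2, the dynamin that takes up ligand and receptor, gave a wild-type signal of 382 and KO signals of 182, 110.6 and 181 with 1432004_a_at, at least 1 log2 unit below it in each, as for 27 of the 12228 probe sets (0.221%). Its other kept probe sets ran from -0.83 with 1437938_x_at to 0.40 with 1425135_a_at, the latter above the wild type in every KO array. Nedd4, a ubiquitin ligase, differed by 0.96 with 1421955_a_at but by -0.11 and -0.52 with 1450431_a_at and 1451109_a_at. Aak1, an adaptor kinase of endocytosis, gave 231 against 149.7, 58.1 and 85.2 with 1420025_s_at, the last of these at background, so that difference has no exact size. Its other kept probe sets, 1434935_at and 1452633_s_at, differed by 0.42 and 0.11.

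For the nuclear complex and corepressors, 26 probe sets of 17 genes were kept, 12 of them (46.2%) above and 2 (7.69%) below the wild type in all 3 KO arrays, against 22.6% and 23.6% of all probe sets tested (median 0.10). Crebbp, an acetyltransferase coactivator, gave a wild-type signal of 35.98 and KO signals of 157.8, 79.7 and 174, and differed by 1.53 log2 units (SE 0.46, limma adjusted p = 0.999). It is 1 of 2 probe sets here, with 1452188_at of Maml1, that passed the filter only through the KO arrays. Both are counted in the 12 of this list and in the 23 of all lists. Crebbp is also counted in the 6 of all lists at an unadjusted p under 0.05 (limma). Kat2a, Tle1 and Maml1, an acetyltransferase, a Groucho corepressor and a coactivator of the Notch complex, differed by 1.001, 0.65 and 0.50 with the probe sets the rule named. The other kept probe sets of Kat2a differed by -0.19 and 0.05, that of Tle1 by 0.27 and that of Maml1 by 0.09. Rbpj itself gave 361 in wild type and 423 ± 28.2 (SD, n = 3) in KO with its brighter probe set (1448957_at), and differed by 0.22 log2 units (SE 0.32). Its other probe set (1418114_at) gave 162 against 174.6, 70.0 and 24.6, the last of these at background.

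For Hes, Hey and other targets, 17 probe sets of 11 genes were kept, 4 of them (23.5%) above and 3 (17.6%) below the wild type in all 3 KO arrays (median 0.08). The Nrarp probe set 1417986_at differed by -1.11 (SE 0.34) and the Hes6 probe sets by -0.61 and -0.58. Hey1, a Notch target of the Hey family, differed by 0.04 (SE 0.38), and Cdkn1a, a cell cycle inhibitor, by 0.46 (SE 0.38). None of the genes named from this list was called, with a limma adjusted p of 0.999 throughout.

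**Figure D4:**
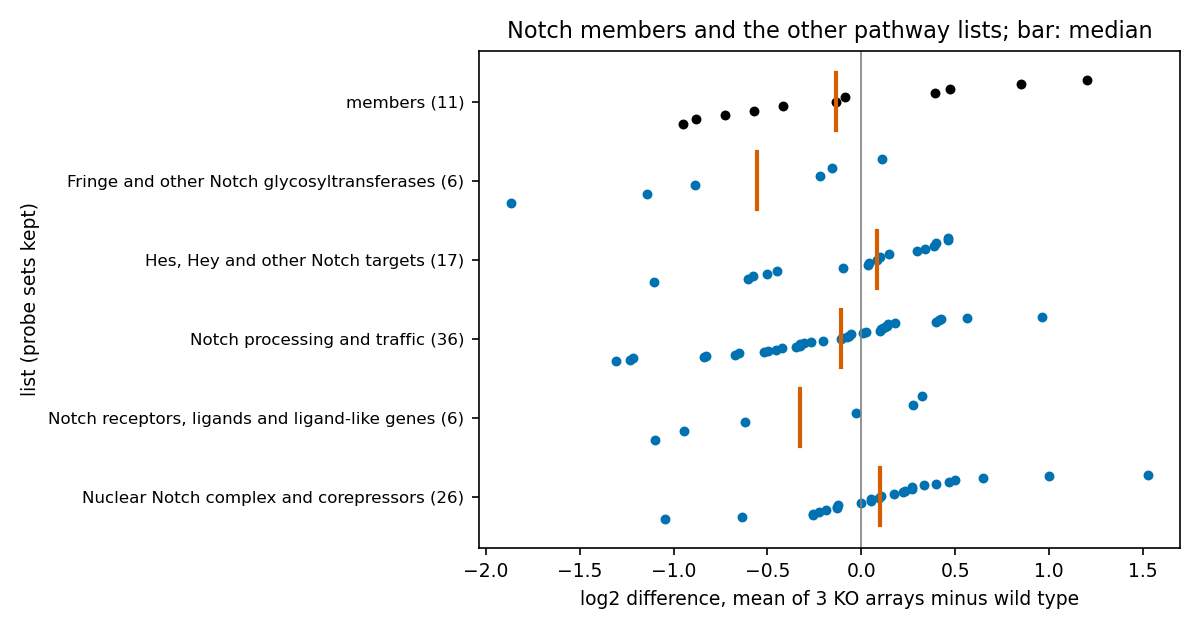
Log2 difference, mean of the 3 KO arrays minus the wild-type array, of each kept probe set of the Notch members and of 5 pathway lists, with the median of each as a bar. The members spread from -0.95 for Hes5 to 1.20 for Jag2 around a median of -0.14, and no point passed the test.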

How the data were processed

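Biotin-labelled cRNA from 6 µg of total RNA was hybridised to 1 Affymetrix array per sample, per the labels' protocols. The deposited values are MAS5 signal intensities, 1 per probe set, and MAS5, of a version not given in the sources used here, comes from the submitters' processing notes. As deposited, each array's mean after trimming 2% from each tail was about 500.2, so no further normalization was applied. Of 22690 probe sets, 20393 had 1 gene symbol, 691 several and 1606 none, and symbols were updated through gene identifiers in RefSeq (GRCm38.p6). The 64 control probe sets were left out of the test. Signals were taken as log2(signal + 14.4), adding 0.1 times the overall median.

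The genotypes were compared in R 4.3.3 with limma 3.58.1 (lmFit and eBayes, two-sided), checked on simulated data of this design. Only the KO arrays inform the spread (2 residual and 4.88 prior degrees of freedom), which is assumed to hold for the single wild-type array too, and so few arrays limit the precision. Members left out by the filter have SEs from the fit without it. The probe set was the unit because the genes were defined by their probe sets. The members and lists were chosen with earlier results of these data known. Named pathway probe sets were up to 4 per list by moderated t, and those whose wild-type value lay 1 log2 unit or more from each KO value and above background in all 4. Rbpj, Hey1, 1417985_at of Nrarp, and the further probe sets of Nedd4, Dnm2, Aak1, Kat2a, Tle1 and Maml1 were added after their values were seen. Alternatives covered scaling, pseudocount, filter, probe set choice, eBayes settings, a minimum fold of 1.5, each KO array left out and the Xist pair as a block.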

Additional observations from a re-analysis of the deposited data

How the results depend on the processing

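Under 15 alternatives, no probe set of the 10 Notch genes or of the other pathway lists was called, and the lowest limma adjusted p of a Notch probe set in any of them was 0.55 (Jag2, without KO replicate 1), against 0.999 in the test as reported. Over all probe sets tested, the count of calls ran from 0 to 2 when 1 KO array was left out. It was 0 under the other alternatives. The calls were Eif2s3y and Tmem87a, without KO replicate 1. That fit sets the wild type against the other Xist pair alone, so genotype and sex cannot be told apart in it. Eif2s3y is the Y-chromosome gene that separates the pairs. The count at an unadjusted p under 0.05 ran from 103 without KO replicate 2 to 1016 without KO replicate 1. Of 222 values of the Notch probe sets under the alternatives, 219 kept the direction. Many of these could not change it. The filter, eBayes and minimum-fold alternatives and the choice of the brightest probe set leave a log2 difference as it was. The same holds for averaging where a gene has a single probe set. The log2 difference of Dll1 ran from -0.20 to 0.0018 and that of the Jag1 probe set 1421105_at from -0.16 to 0.037 when 1 KO array was left out, each above 0 without KO replicate 1. That of the Notch2 probe set 1451889_at was -0.21 with the Xist pair as a block, where every value equals the difference between wild type and KO replicate 1. With all probe sets of a gene averaged, Jag2 differed by 0.12. The Notch probe sets with the wild type outside the KO range numbered 7 of 11 in the test as reported. Where fewer were tested, they numbered 4 of 6 with the dimmest 60% left out and 4 of 8 genes with probe sets averaged. Of the same 11, they numbered 6 with quantile normalization. Without KO replicates 1, 2 and 3 in turn they numbered 7, 8 and 10, where fewer KO arrays set the range. The shares over all probe sets under these alternatives were not counted, so these numbers show nothing particular to the Notch genes. No paired analysis was possible because the labels give the arrays no shared replicate numbers. Signal over background limits the Jag1 probe sets and 1426431_at of Jag2, which were not above it in every array.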
